A study of Homo sapiens with 12 samples.

Results

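The mRNAs of the syndecans and glypicans were followed in HEYA8 ovarian cancer cells expressing mutants of betaglycan. The genes were the 4 syndecans (SDC1 to SDC4) and the 6 glypicans (GPC1 to GPC6), taken by symbol from a count table of 56269 genes, so that 10 genes of the table were members. Betaglycan itself, the product of TGFBR3, is another proteoglycan of the cell surface and its level is given beside them. Of the 10 members, 6 had counts high enough to be tested (SDC1, SDC2, SDC3, SDC4, GPC1 and GPC2), while GPC3, GPC4, GPC5 and GPC6 were at or within a few counts of 0. None of the 6 tested members passed the test in any comparison of the 4 groups. Of all 16069 genes tested, 0 passed in each pairwise comparison and 1 in the single test of the 4 groups. SDC4, SDC1, SDC3, GPC1, SDC2 and GPC2 followed each other in that order of level per length in every library.

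Syndecans and glypicans are the main carriers of heparan sulfate at the cell surface. Syndecans are single-pass membrane proteins with a short cytoplasmic tail, and glypicans are held to the outer face of the membrane by a glycosylphosphatidylinositol anchor. In both, chains of heparan sulfate, and in some members chondroitin sulfate, grow from serines that stand before a glycine, and the chains bind growth factors, morphogens and matrix proteins. Both families are released from cells, the syndecans by metalloproteinases that cut near the membrane and the glypicans by enzymes that cut their anchor.

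RNA-seq was done on 12 libraries, 3 from each of 4 stable HEYA8 lines, which is an established line labelled as high grade serous ovarian cancer. All were grown in RPMI-1640 with fetal bovine serum at rest, with no ligand added. The lines carried a lentiviral pHIV-dTomato vector and were sorted on dTomato. Whether the 3 libraries of a group came from 1 sorted population is not stated. They were control vector cells, cells with betaglycan in which serine 534 was changed to alanine (S534A, called CS-BG in the study), cells with the same change at serine 545 (S545A, called HS-BG) and cells with both changes (∆GAG-BG, which lacks both attachment sites). The question set by the design was what the kind of chain on betaglycan changes in these cells. The series speaks of biological replicates without saying how the cultures were separated, and p-values measure the spread between these libraries.

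Total counts ran from 16410001 to 29504297 per library. Levels are given in CPM (counts scaled to library size and TMM factors). By library size alone, without TMM factors, 3 counts corresponded to 0.102 to 0.183 CPM. Of 8 markers of ovarian carcinoma and Mullerian epithelium, 6 were above 3 counts in all 12 libraries, among them PAX8 and KRT7, while MUC16 and CDH1 had no count. VIM was at 2343 CPM or more in every library. The 4 leukocyte markers summed to 0.227 CPM at most. Summed fibroblast markers lay between 8.68 and 21.4 CPM with DCN at 0, and the 3 endothelial markers summed to between 171.5 and 445 CPM, nearly all of it CDH5. In bulk RNA a smaller share of cells expressing a gene and less RNA per cell cannot be told apart.

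TGFBR3, which the constructs encode, was counted at 15.9, 259 and 259 CPM in control vector replicates 1, 2 and 3 and at 259.6, 20.3 and 21.4 CPM in ∆GAG-BG replicates 1, 2 and 3. It stood at 476, 413 and 457 CPM in the S534A libraries and at 574, 522 and 520.4 CPM in the S545A libraries. Replicates 2 and 3 of the libraries labelled ∆GAG-BG, a group that carries an added copy, were thus below those labelled control vector, and replicate 1 of each group lay near the other group's replicates 2 and 3. By TGFBR3, replicates 2 and 3 of these groups thus went against their labels, while the replicates 1 had the order an added copy would give. The names ∆GAG-BG and control vector are used as labels only. Fold changes against either group are given as labelled, without both replicates 1, and with both replicates 1 as the only libraries of these groups, a fit in which each lone library is assumed to vary like the other groups. The counts of TGFBR3 pool the constructs' transcripts with the endogenous ones.

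To show what the members and betaglycan share, serine-glycine codon pairs were read in frame, on the coding strand, in the GENCODE 29 transcripts. The letters searched were TCNGGN for serine codons that start with T, and either AGTGGN or, in the other spelling, AGCGGN for those that start with A. In frame, no such pair shares a base with the next. Codons for the acidic residues aspartate and glutamate were counted among the 10 codons before and the 10 after each pair. The windows below hold the largest cluster of pairs in the 5 tested members shown and the mutated sites of TGFBR3, each from 6 codons before the first pair to 6 codons beyond the last. Capitals mark the codons of serine-glycine pairs. All else is in lower case, including serine and glycine codons outside such a pair.
SDC1: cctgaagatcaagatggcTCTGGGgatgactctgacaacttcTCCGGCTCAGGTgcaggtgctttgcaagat
SDC3: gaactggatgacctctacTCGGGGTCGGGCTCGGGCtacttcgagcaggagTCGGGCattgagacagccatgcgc
SDC4: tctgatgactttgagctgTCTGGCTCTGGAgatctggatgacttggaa
GPC1: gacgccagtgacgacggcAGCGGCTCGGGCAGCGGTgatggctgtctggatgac
GPC2: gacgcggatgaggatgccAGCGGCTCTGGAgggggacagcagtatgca
TGFBR3: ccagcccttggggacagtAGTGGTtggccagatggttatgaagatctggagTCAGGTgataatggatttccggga

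The SDC1 window covered codons 31 to 54 and lay on GRCh38 at chr2:20204278-20205400 on the minus strand, across the junction of exons 2 and 3 of 5. The SDC3 window covered codons 74 to 98, at chr1:30877128-30878659 on the minus strand, also across exons 2 and 3 of 5. The SDC4 window covered codons 55 to 70, at chr20:45333059-45335818 on the minus strand, across the same pair of exons. In all 3 of these syndecans the cluster was thus coded near the start of the protein and was interrupted in the genome by the second intron, which is not printed. The GPC1 window covered codons 480 to 497, at chr2:240465642-240466104 on the plus strand, across exons 8 and 9 of 9. The GPC2 window covered codons 494 to 509, at chr7:100170443-100171267 on the minus strand, across exons 9 and 10 of 10. Both glypican clusters lay near the end of the protein, over the junction with the last exon. The TGFBR3 window covered codons 528 to 552 within exon 11 of 17, at chr1:91716619-91716693 on the minus strand, and its pairs are those at codons 534 and 545, the serines that S534A and S545A replace.

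**Figure D1:**
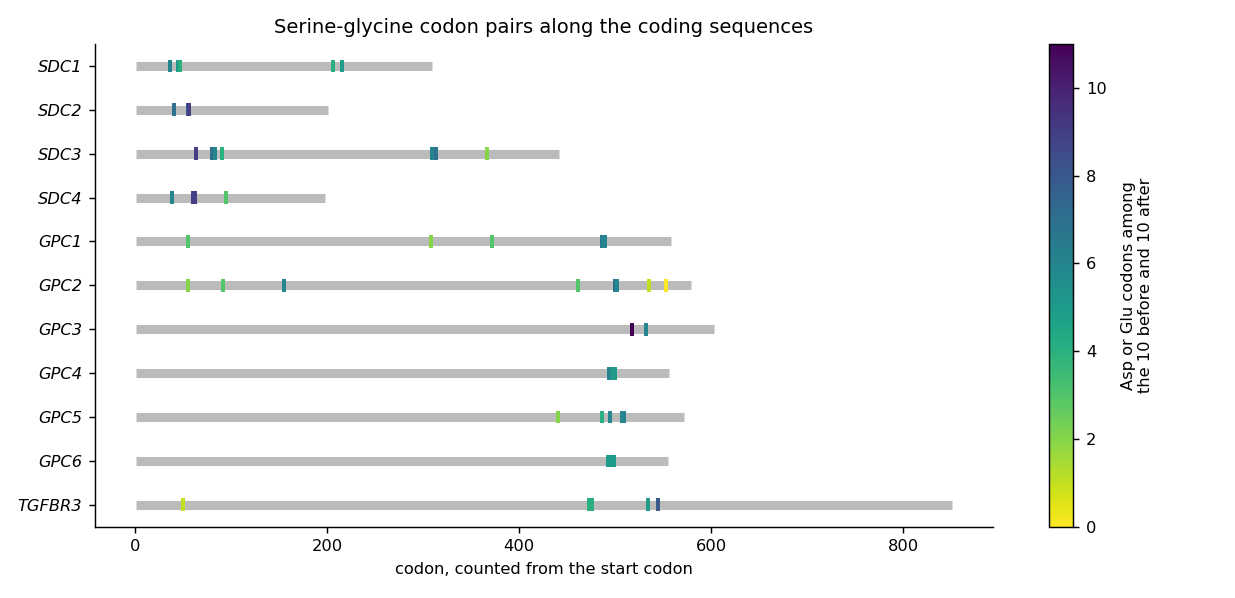
Position of each serine-glycine codon pair (ticks) along the coding sequence (grey bar, codons counted from the start codon on the x axis) of the 10 members and TGFBR3, with the colour giving the Asp or Glu codons among the 10 before and 10 after. Pairs with 5 or more such codons lie near the start of each syndecan, with further ones at codon 216 of SDC1 and codons 310 and 314 of SDC3, and toward the end of each glypican, with a further one at codon 155 of GPC2, while those of TGFBR3 are at 534 and 545.

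Every member held between 2 and 8 such pairs. SDC3 and GPC2 held 8 each, GPC1 held 6, SDC1 and GPC5 held 5, SDC4 and GPC6 held 4, SDC2 and GPC4 held 3 and GPC3 held 2. Pairs that follow each other directly occurred in 9 of the 10 members, all but GPC3, and in 3.18% of 19484 coding genes. At least 1 pair with 5 or more acidic codons around it occurred in all 10 members and in 19.3% of coding genes, whereas any pair at all occurred in 81.9%. TGFBR3 held 5 pairs, none directly after another, with 5 acidic codons beside that at codon 534 and 8 beside that at codon 545. These are matches of letters in 1 transcript per gene, and say nothing about which serines carried a chain in these cells.

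SDC4, the syndecan of focal adhesions, where it binds protein kinase C alpha, was the most abundant member per length. The gene lies at chr20:45325288-45348424 on the minus strand and had 1932 to 6123 counts per library. It was at 105.5, 118 and 118 CPM in the control vector libraries and at 138, 118 and 111 CPM in those labelled ∆GAG-BG. In S534A it was at 107, 204 and 117 CPM, and in S545A at 122, 124 and 121.5 CPM. The 3 S545A libraries lay within a few CPM of each other, and 1 S534A library, replicate 2, stood above the other 11. Group means were 113.5 ± 6.99 CPM in control vector, 123 ± 13.8 in ∆GAG-BG, 143 ± 53.4 in S534A and 122 ± 1.31 in S545A (SD, n = 3 each). Its pseudogene SDC4P had no count in any library.

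SDC1, the syndecan typical of epithelia and a heparan and chondroitin sulfate carrier, came next. It lies at chr2:20200797-20225433 on the minus strand and had 1535 to 4950 counts. Its level was 129.5, 84.2 and 80.5 CPM in control vector and 85.5, 107 and 103 CPM in ∆GAG-BG. In S534A it was 121, 165.2 and 93.1 CPM, and in S545A 125, 75.7 and 75.9 CPM. Replicate 1 was the highest of its group in control vector and S545A and the lowest in ∆GAG-BG, and all 4 groups overlapped. Group means were 98.0 ± 27.3, 98.4 ± 11.4, 126 ± 36.4 and 92.2 ± 28.4 CPM in control vector, ∆GAG-BG, S534A and S545A (SD, n = 3 each).

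SDC3, a syndecan known best from the nervous system and muscle, lies at chr1:30869467-30908761 on the minus strand and had 814 to 2907 counts. It was at 54.9, 42.4 and 41.3 CPM in control vector and at 45.9, 49.5 and 52.3 CPM in ∆GAG-BG. S534A libraries held 47.4, 97.0 and 49.4 CPM, and S545A libraries 55.0, 46.1 and 44.6 CPM. Apart from S534A replicate 2, no library exceeded 55.0 CPM. Group means were 46.2 ± 7.52, 49.2 ± 3.23, 64.6 ± 28.1 and 48.6 ± 5.60 CPM in the order above (SD, n = 3 each).

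SDC2, the syndecan of mesenchymal cells, was far lower. It lies on chromosome 8 and had 63 to 111 counts, or 3.53, 4.01 and 3.48 CPM in control vector and 2.86, 5.16 and 5.01 CPM in ∆GAG-BG. In S534A it was at 2.42, 3.70 and 4.37 CPM and in S545A at 2.48, 3.58 and 3.11 CPM. Replicate 1 was the lowest of its group in ∆GAG-BG, S534A and S545A, and replicates 2 and 3 of ∆GAG-BG were the highest libraries of all. Group means were 3.67 ± 0.289, 4.34 ± 1.29, 3.50 ± 0.992 and 3.06 ± 0.550 CPM in the same order (SD, n = 3 each).

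Of the glypicans, GPC1 alone was well expressed. GPC1 is the most widely expressed glypican and acts as a co-receptor for fibroblast growth factors. It lies at chr2:240435671-240468078 on the plus strand and had 464 to 1415 counts. It was at 23.5, 24.9 and 25.1 CPM in control vector and at 22.7, 28.99 and 28.5 CPM in ∆GAG-BG. In S534A it was at 21.1, 47.2 and 28.2 CPM and in S545A at 21.1, 32.5 and 30.2 CPM. Replicate 1 was the lowest library in 4 of 4 groups, which was true of 3.92% of the 16069 genes tested. Group means were 24.5 ± 0.878, 26.7 ± 3.51, 32.2 ± 13.5 and 27.9 ± 6.03 CPM in control vector, ∆GAG-BG, S534A and S545A (SD, n = 3 each).

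GPC2, a glypican of developing neurons that is also found on neuroblastoma, was at the limit of what could be tested. It lies at chr7:100169606-100177372 on the minus strand and had 5 to 20 counts. Levels were 0.484, 0.613 and 0.626 CPM in control vector, 0.363, 0.790 and 0.632 CPM in ∆GAG-BG, 0.498, 0.667 and 0.485 CPM in S534A and 0.465, 0.245 and 0.410 CPM in S545A. All 3 S545A libraries were below all 3 control vector and all 3 S534A libraries, but not below ∆GAG-BG replicate 1. Group means were 0.575 ± 0.0784, 0.595 ± 0.216, 0.550 ± 0.102 and 0.373 ± 0.115 CPM in the same order (SD, n = 3 each).

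The other 4 glypicans were not detected or nearly so. GPC3, an oncofetal glypican used as a marker of liver cancer, and its neighbour on the X chromosome GPC4 had 0 counts in all 12 libraries. With 3 counts taken as the most this allows, the bound is 0.102 to 0.183 CPM per library by library size alone. GPC5, next to GPC6 on chromosome 13, had 4 counts over 3 libraries. GPC6 had 15 counts over 9 libraries and no more than 3 in any. An antisense gene with the file symbol RP11-632L2.2 shares 476 exon bases with GPC6 on the other strand and had 0 or 1 count. No difference between groups could be detected in these 4 genes at this depth.

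**Figure D2:**
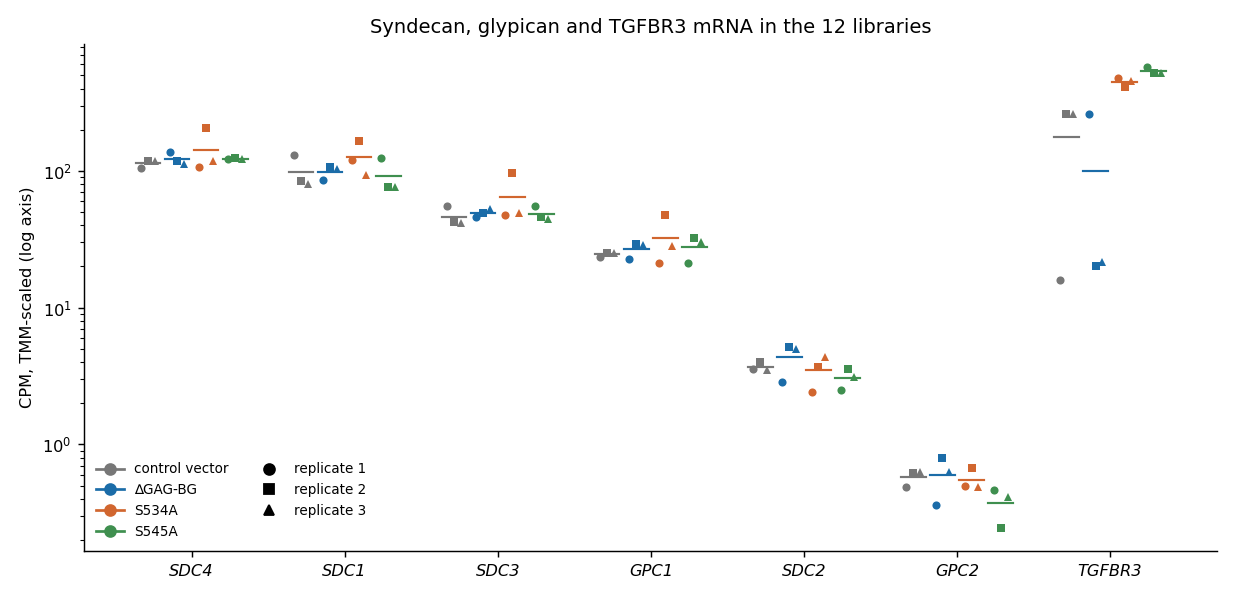
Level of the 6 tested members and of TGFBR3 in CPM on a log axis, with a point for each of the 12 libraries (colour for group, shape for replicate number) and a line for each group mean. S534A replicate 2 is the highest point of SDC4 (204 CPM), SDC1 (165.2), SDC3 (97.0) and GPC1 (47.2), and TGFBR3 spans 15.9 to 574 CPM.

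To set the genes beside each other, CPM was divided by the summed exon length of each gene. Per kilobase the mean over the 12 libraries was 47.98 for SDC4, 28.9 for SDC1, 7.38 for SDC3, 4.27 for GPC1, 0.803 for SDC2 and 0.137 for GPC2. Each of the 5 neighbouring pairs in this order kept it in 12 of 12 libraries. The closest neighbours were SDC4 and SDC1, with a ratio of SDC4 to SDC1 of 1.12 to 2.25 (median 1.72), and SDC3 and GPC1, with a ratio of 1.31 to 2.403. The steps from SDC1 to SDC3 (3.23 to 5.01), from GPC1 to SDC2 (3.91 to 8.87) and from SDC2 to GPC2 (4.10 to 12.3) were wider.

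Within the syndecans, SDC4 held 47.5% to 63.1% of the summed level per length (median 56.7%), SDC1 27.8% to 42.4% (median 33.0%), SDC3 7.76% to 9.90% and SDC2 0.589% to 1.39%. Within the glypicans, GPC1 held 95.3% to 98.3% (median 96.2%) and GPC2 nearly all of the rest. The syndecans together exceeded the glypicans by 14.9 to 26.7 times. The share held by SDC1 was highest in control vector replicate 1, at 42.4%, and lowest in S545A replicate 2, at 27.8%, and the SD within each group exceeded the difference between any 2 group means. Its mean share was 34.6% ± 6.79 in control vector, 33.4% ± 4.28 in ∆GAG-BG, 35.7% ± 4.61 in S534A and 31.6% ± 6.18 in S545A (SD, n = 3 each).

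The summed level of both families lay between 78.0 and 93.1 CPM per kilobase in 11 libraries and at 146 in S534A replicate 2. TGFBR3 per kilobase ranged from 1.83 to 66.0, its highest library being 36.1 times its lowest, while for the tested members this ratio lay between 1.94 (SDC4) and 3.22 (GPC2). Per length, TGFBR3 was above SDC4 in S534A replicates 1 and 3 and in all 3 S545A libraries, where the ratio to SDC4 reached 1.42, and it was at 0.0453 of SDC4 in control vector replicate 1. As a share of TGFBR3 and both families together it made up 2.02%, 27.3% and 27.6% in control vector and 25.5%, 2.59% and 2.83% in ∆GAG-BG. The share was 39.1%, 24.5% and 38.7% in S534A and 41.5%, 42.6% and 43.0% in S545A. These shares divide TGFBR3 by the exon length of the whole gene, while an added copy need not carry all of it.

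**Figure D3:**
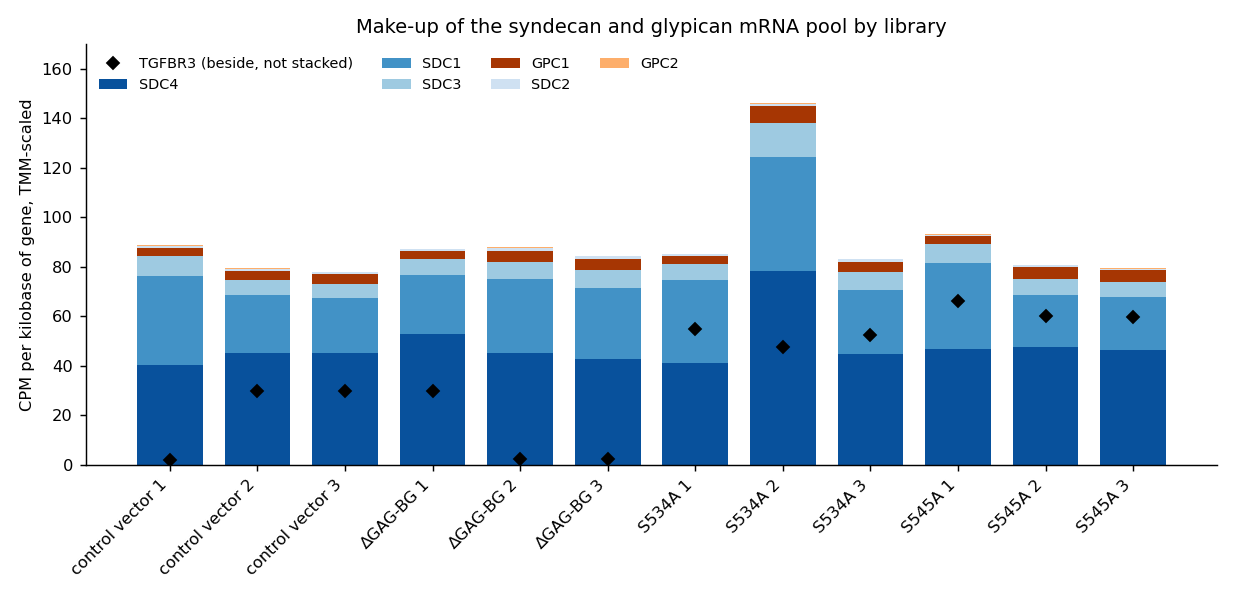
Summed level of the tested members in each library, in CPM per kilobase of gene, stacked by gene (blue for syndecans, brown and orange for glypicans), with TGFBR3 as a black diamond. S534A replicate 2 reaches 146 and the other libraries 78.0 to 93.1, while the diamonds range from 1.83 to 66.0.

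The 4 groups were compared by edgeR's quasi-likelihood test over the 16069 genes that passed the filter, with adjusted p-values over all of them. In the single test of any difference among the 4 groups, 0 of the 6 tested members passed an adjusted p of 0.05, against 0.00622% of all genes tested. At an unadjusted p of 0.05 the count was also 0 of 6, against 1.55% of all genes, and the lowest unadjusted p of a member was 0.201. In each of the 6 pairwise comparisons 0 of 6 members passed the adjusted p, as did 0% of all genes tested, and 0 of 6 passed unadjusted. DESeq2 and limma-voom also called 0 members at an adjusted p in every comparison. DESeq2 put SDC3 under an unadjusted p of 0.05 in S534A against control vector.

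Set against each other, S545A and S534A form the comparison that uses neither of the groups whose TGFBR3 level disagreed within the group. All 6 tested members had negative log2 fold changes, that is, lower fitted levels in S545A, with a median of -0.32 beside -0.00024 over all genes tested, and none passed the test (lowest adjusted p = 0.70, edgeR). At an unadjusted p of 0.05, 4.78% of all genes differed. SDC1 had a log2 fold change of -0.46 (SE 0.26, unadjusted p = 0.101), with a 95% interval of 0.494 to 1.08 as a fold. SDC3 had -0.41 (SE 0.24, interval 0.525 to 1.07) and SDC4 -0.22 (SE 0.19, interval 0.639 to 1.15). Without S534A replicate 2 the values were -0.21, 0.0082 and 0.13, so that SDC3 and SDC4 changed sign and SDC1 did not. Over the fits without 1 library SDC1 ran from -0.73, without S545A replicate 1, to -0.21. GPC1 had -0.21 (SE 0.25, interval 0.593 to 1.27), which became 0.19 without S534A replicate 2, and SDC2 had -0.18 (SE 0.26, interval 0.591 to 1.31).

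GPC2 was the member with the largest fitted difference between S545A and S534A, with a log2 fold change of -0.55 (SE 0.35, interval 0.403 to 1.17, unadjusted p = 0.143). It was also the 1 member of 6 whose groups did not overlap there, against 10.1% of all genes tested. With 5 to 12 counts in the S545A libraries and 8 to 20 in the S534A libraries, the value without S534A replicate 2 was -0.36.

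Against control vector, S534A had the largest log2 fold change in SDC3, at 0.48 (SE 0.24, unadjusted p = 0.0631, adjusted p = 0.87, edgeR), followed in p by SDC4 at 0.33 (SE 0.19). The intervals as folds were 0.979 to 2.00 for SDC3 and 0.940 to 1.69 for SDC4. Without S534A replicate 2 these values were 0.06 and -0.019. No member had groups apart, against 7.65% of all genes, and 3.45% of all genes had an unadjusted p under 0.05. Without both replicates 1 the values were 0.63 for SDC3 and 0.28 for SDC4, with SDC1 and SDC3 under an unadjusted p of 0.05 and no member under an adjusted one. The share of all genes under 0.05 in fits without both replicates 1 is not given here. With the replicates 1 alone SDC3 was at 0.22 and SDC4 at 0.42.

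S534A against the libraries labelled ∆GAG-BG gave SDC3 0.39 (SE 0.24, unadjusted p = 0.122) and SDC1 0.36 (SE 0.26, unadjusted p = 0.184) as the members with the lowest p. Without S534A replicate 2 they were at -0.023 and 0.12. The groups overlapped in all 6 members, against 5.66% of all genes tested that did not, and 2.99% of all genes had an unadjusted p under 0.05. Without both replicates 1, SDC3 was at 0.35 and SDC1 at 0.27, and SDC2 was under an unadjusted p of 0.05. With the replicates 1 alone, SDC3 was at 0.49 and SDC1 at 0.56, and no member was under it.

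When S545A was set beside ∆GAG-BG as labelled, the low members led. SDC2 had a log2 fold change of -0.51 (SE 0.26, unadjusted p = 0.0745, interval 0.473 to 1.04 as a fold) and GPC2 -0.64 (SE 0.35, unadjusted p = 0.0944, interval 0.377 to 1.10). Both groups overlapped in each of the 6 members, against 5.05% of all genes whose groups were apart, and 1.10% of all genes had an unadjusted p under 0.05. Without both replicates 1, SDC2 was at -0.73 and GPC2 at -0.88, both under an unadjusted p of 0.05 and neither under an adjusted one. With the replicates 1 alone both reversed, to 0.090 for SDC2 and 0.062 for GPC2, so that the direction of these values rests on ∆GAG-BG replicates 2 and 3.

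Against control vector, S545A had GPC2 at -0.58 (SE 0.35, unadjusted p = 0.120) and SDC2 at -0.27 (SE 0.26, unadjusted p = 0.327) as the members with the lowest p. Here the groups did not overlap in 2 of 6 members, against 8.82% of all genes tested. GPC2 was lower in every S545A library, and SDC4 was higher in every S545A library, at 121.5 CPM or more against 118 CPM or less. With 3 libraries against 3, the exact permutation test cannot go below p = 0.10, the value both genes had (two-sided). At an unadjusted p of 0.05, 1.05% of all genes differed. Taken in pairs of the same replicate number, 5 of 6 members had the same sign in all 3 pairs, as did 39.3% of all genes tested. Pairs 2 and 3 are not independent, since libraries 2 and 3 of each group were alike. Their chi-square per degree of freedom was 1.44 in control vector and 1.40 in S545A. SDC1, SDC2 and GPC2 were lower in S545A in each pair, SDC3 and SDC4 were higher, and GPC1 was lower in pair 1 and higher in the others. In pair 1 the difference was only 0.10 CPM for SDC3 and -0.019 CPM for GPC2. With the replicate number as a block, GPC2 was at -0.57 (unadjusted p = 0.139, edgeR) and SDC2 at -0.29 (unadjusted p = 0.157), and 0 members passed. Without both replicates 1, GPC2 was at -0.69 and SDC2 at -0.29, and with the replicates 1 alone they were at -0.37 and -0.23.

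Between the libraries labelled ∆GAG-BG and control vector, the members with the lowest p were SDC2, at 0.24 (SE 0.26), and SDC4, at 0.11 (SE 0.19). The lowest adjusted p was 1.00. Groups were apart in 0 of 6 members, against 4.87% of all genes tested, and 0.871% of all genes had an unadjusted p under 0.05. Without both replicates 1, SDC2 was at 0.44 and SDC4 at -0.038. With the replicates 1 alone, SDC2 was at -0.32 and SDC4 at 0.37, so that both signs depend on which libraries are kept. The comparisons share groups, and their values are not independent of each other.

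**Figure D4:**
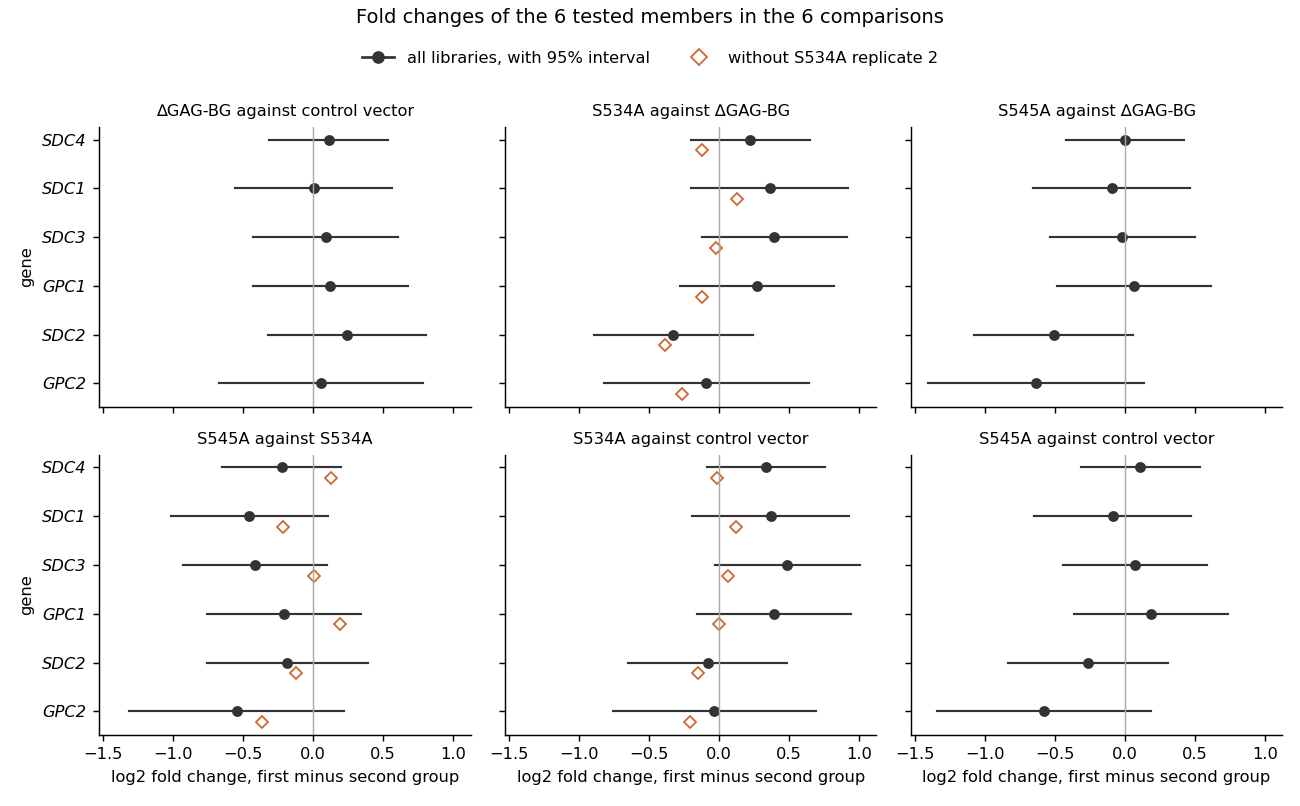
Fitted log2 fold change of the 6 tested members in the 6 comparisons (x axis, first group minus second), with 95% intervals as lines and, where S534A enters, the value without its replicate 2 as open diamonds. Every interval crosses 0, and in S545A against S534A the SDC3 value moves from -0.41 to 0.0082 and the SDC4 value from -0.22 to 0.13.

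A missed threshold leaves room for changes of some size. Over the 6 comparisons the 95% intervals reached from 0.639 to 1.69 as a fold for SDC4, from 0.593 to 1.92 for GPC1 and from 0.494 to 1.90 for SDC1. They reached from 0.525 to 2.00 for SDC3, from 0.473 to 1.75 for SDC2 and from 0.377 to 1.72 for GPC2. Thus the intervals were narrowest for SDC4 and widest for GPC2, the most and the least counted of the 6.

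S534A replicate 2 was the library in which most members were highest. It held the highest value of SDC1, SDC3, SDC4 and GPC1, 4 of the 6 tested members, and of 26.1% of all genes tested. Its value exceeded the next highest library by 1.77 times in SDC3, 1.48 times in SDC4, 1.45 times in GPC1 and 1.28 times in SDC1. SDC2 and GPC2 were highest in ∆GAG-BG replicate 2, where 5.74% of all genes tested were. What sets that S534A library apart was not tested.

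Genes whose pattern over the 12 libraries was most like a member's were sought by the root mean square difference of log2(CPM + 1), centred on each gene's mean. For SDC1 these were SIMC1 (0.0637), ARNTL2 (0.0674) and DNAJA1 (0.0708), where the root mean square of SDC1 about its own mean was 0.337. For SDC3, at 0.304, they were PMP22 (0.0829), C19orf60 (0.0901) and FAM219A (0.0929). GPC1, at 0.299, was followed most closely by CRIP2 (0.0902), IGFBP4 (0.0937) and FSTL1 (0.107). All 9 of these genes had their highest level in S534A replicate 2, as did the members they follow. Being chosen for likeness to those members, they could hardly differ in this. SDC2, at 0.263, had no gene as close, with SAMD9 at 0.130, FBN1 at 0.135 and NOX4 at 0.137, each highest in a ∆GAG-BG library. With 63 to 111 counts of SDC2, counting noise also enters these distances. SDC4 and GPC2 are not compared in this way, SDC4 because its highest library was under 2 times its lowest and GPC2 because its mean was under 1 CPM.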

How the data were processed

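The authors deposited 1 table of counts per gene for the 12 libraries, which the labels describe as paired reads from a directional kit. The submitters' processing notes name FastQC, Trim Galore 0.4.5, STAR 2.4, SAMtools 1.2 and featureCounts, with mm10 and GRCm38 as builds. The deposited table itself carries human symbols: of the 36005 that are in GENCODE 29, 93.4% had its GRCh38 coordinates, and so did all 10 members and TGFBR3. The annotation and the strand setting of the counting are not given in the sources used here, so antisense overlaps cannot be told apart. Counts were read as deposited, and no column was left unmapped. The third S545A library bears S545S in its title and was placed by its genotype label.

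Genes were filtered by filterByExpr (minimum count 10), scaled by TMM and fitted with edgeR 4.0.16 in R 4.3.3 over all 12 libraries with group as the only term (8 residual degrees of freedom, biological coefficient of variation 0.163). P-values were adjusted by Benjamini-Hochberg over the 16069 genes and called at 0.05. The same script was tested on simulated data first. Alternatives were DESeq2 1.42.0, limma-voom (limma 3.58.1), RLE factors, library size only, no filter, only the compared groups, a replicate block, each library left out, replicates 1 of ∆GAG-BG and control vector left out, and libraries 2 and 3 summed. A fit that kept replicate 1 as the lone library of ∆GAG-BG and of control vector was chosen after seeing the data. Members and lists were chosen with earlier results of these data known. All 10 members are named. Fold changes are printed for the 2 members of lowest p in a comparison and for all tested members in S545A against S534A. Sequences are from GENCODE 29, using the longest complete coding transcript of a gene.

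Libraries 2 and 3 of control vector, ∆GAG-BG and S545A had chi-square values of 1.40 to 1.99 per degree of freedom between their gene counts, and the 9 other pairs of 1 group had values of 17.4 to 77.9. Pairs of libraries from different groups had values of 3.94 to 122.6, so that some were more alike than those 9 pairs. The libraries 2 and 3 of these 3 groups were more alike than other replicates but exceeded sampling noise, and were counted as separate samples. SDs, intervals and p-values treat them as independent, and would be too small if they shared a culture, which no label states. With them summed, no member had an unadjusted p under 0.05 in any comparison by edgeR. Deviations of same-numbered libraries from their group means correlated at 0.597, 0.305 and 0.291 in S545A and control vector. These libraries were taken as pairs from the data, since no label states a shared day or culture. With libraries 2 and 3 of both groups so alike, the correlations mostly reflect replicate 1 against the others. They cannot show that library 2 pairs with library 2 rather than with library 3. Each other comparison had at least 1 pair below 0.1.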

Additional observations from a re-analysis of the deposited data

How the results depend on the processing

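The number of members called at an adjusted p of 0.05 was 0 in each of the 7 tests and stayed 0 in all 117 alternatives of them, the lowest adjusted p of a printed fold change being 0.305. Of 256 alternatives of the 16 fold changes printed by the stated rule, 247 kept their direction. Leaving out S534A replicate 2 reversed 5 values. Over the fits without 1 library, SDC3 in S534A against ∆GAG-BG ran from -0.023 to 0.58, and SDC4 in S534A against control vector from -0.019 to 0.497. In S545A against S534A, SDC3 ran from -0.59 to 0.0082, SDC4 from -0.39 to 0.13 and GPC1 from -0.43 to 0.19. In each the end of opposite sign is the fit without S534A replicate 2. Leaving out both ∆GAG-BG replicate 1 and control vector replicate 1 put SDC4 at -0.038 in ∆GAG-BG against control vector. With only replicate 1 of these 2 groups, an alternative chosen after seeing the data, SDC2 was at -0.32 between them. In S545A against ∆GAG-BG, SDC2 was then at 0.090 and GPC2 at 0.062. At an unadjusted p of 0.05 a member was called in 16 of 117 alternatives, at most 3 (GPC1, SDC3 and SDC4 in S534A against control vector without S534A replicate 1). The share of all genes under 0.05 in these alternatives is not given here. With the replicate number as a block, the number of members called was 0 in every comparison. The block put SDC2 in S545A against ∆GAG-BG under an unadjusted p of 0.05 (-0.49, unadjusted p = 0.0286, adjusted p = 1.00 by edgeR) and changed no other call. Without division by length the median share of SDC4 among syndecans was 43.9%, that of SDC1 35.2%, that of SDC3 18.1% and that of SDC2 1.35%. Among glypicans that of GPC1 was 97.7% and that of GPC2 2.08%. In CPM, SDC1 was above SDC4 in replicate 1 of control vector (129.5 against 105.5), S534A (121 against 107) and S545A (125 against 122). It was below SDC4 in the other libraries. For GPC2 (5 to 20 counts) and SDC2 (63 to 111 counts) the counts limit what can be seen, and for GPC3 to GPC6 no fold can be given.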

Other observations

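A list of 24 genes whose products bind, anchor, cut or use syndecans and glypicans was read beside them, and 19 passed the filter. Per kilobase the highest were MMP14, a membrane metalloproteinase that cuts syndecans, at a mean of 100.5 CPM per kilobase over the 12 libraries, SDCBP (syntenin, which binds syndecan tails) at 75.6 and MDK (midkine, a heparan sulfate binding growth factor) at 49.2. The anchor-cutting enzyme NOTUM had 0 to 2 counts, HPSE2 0 or 1, and MMP7, another enzyme that sheds syndecans, had none. None of the 19 passed an adjusted p of 0.05 by edgeR in any of the 6 comparisons, where 0% of all genes tested did. Unadjusted, 1 was under 0.05, MMP9 in S534A against control vector, where 3.45% of all genes tested were. It had a log2 fold change of 2.23 (SE 0.98, unadjusted p = 0.0426, adjusted p = 0.87, edgeR). Its S534A libraries were at 0.747, 4.41 and 0.182 CPM, so that replicate 2 was high and replicate 3 below every control vector library, and the call held in 2 of 6 fits that left out 1 library. Without S534A replicate 2 the value was 0.37. Without replicate 1 of both ∆GAG-BG and control vector it was 2.44, and with those replicates alone 1.91. The median log2 fold change of the list ran from -0.05 in S534A against control vector, beside 0.01 over all genes tested, to 0.01 in S545A against S534A, beside -0.00024.

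Of 9 other proteoglycans that span the membrane, 7 passed the filter. APLP2, a relative of the amyloid precursor, was at a mean of 226 CPM per kilobase and CD44, the hyaluronan receptor, at 111, both above SDC4, with TGFBR3 next at 36.4. None passed an adjusted p of 0.05 by edgeR, against 0% of all genes tested in each of the 6 pairwise comparisons. TGFBR3 in S545A against ∆GAG-BG was under 0.05 unadjusted (log2 fold change 2.42, SE 1.02, unadjusted p = 0.0354, adjusted p = 1.00), as were 1.10% of all genes tested there. The call held in 1 of 6 fits that left out 1 library. The log2 fold change stayed between 1.94 and 4.70 in those fits, the highest being without ∆GAG-BG replicate 1, and all 3 S545A libraries were above all 3 ∆GAG-BG libraries. Without replicate 1 of both ∆GAG-BG and control vector the TGFBR3 value was 4.70, and with those replicates alone 1.05. These replicates stand apart by their TGFBR3 level itself, so neither fit is a test of TGFBR3. In the former fit ∆GAG-BG was held by its replicates 2 and 3, which were more alike than other replicates.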
